A study of Mus musculus with 6 samples.

Results

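The pentose phosphate pathway and the cytosolic enzymes that form NADPH were followed through 10 genes, picked by gene name from the 54924 genes of the deposited count table. The oxidative branch was represented by G6pdx, Pgls and Pgd, the non-oxidative branch by Rpia, Rpe, Tkt and Taldo1, the outlet for ribose 5-phosphate by Prps1, and NADPH formation outside the pathway by Me1 and Idh1. RNA was sequenced from 3 libraries of myotubes given 25 μM kaempferol, a plant flavonol, for 24 h, and from 3 libraries of control myotubes that received none. All 6 came from C2C12, a single mouse myoblast line, differentiated for 6 days in horse serum medium and then reseeded. On the kaempferol samples the line is spelled C2C13, and a treatment tag of both groups reads "dedifferentiation". The labels do not say whether the replicates were separate cultures, so the p-values measure only the spread between these libraries, and a vehicle for the controls is not given in the sources used here.

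The oxidative branch takes glucose 6-phosphate to ribulose 5-phosphate and reduces NADP+ to NADPH at its first and last dehydrogenase steps. The non-oxidative branch interconverts pentose phosphates with glycolytic sugar phosphates, reversibly and without NADPH. NADPH is the reductant for glutathione and thioredoxin recycling, for quinone and carbonyl reductases and for fatty acid and sterol synthesis, and ribose 5-phosphate is the sugar of nucleotides.

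Between 16575790 and 18625272 reads were assigned to genes per library, and 14558 genes had enough counts to be tested. The myotube marker list summed to 584, 613 and 611 CPM (counts per gene scaled to a common library total) in the kaempferol libraries, against 639, 569 and 562 CPM in the control libraries, with 2 of 9 tested genes called higher (Acta1 and Myog), where 24% of all tested genes were called in either direction. Myog lost its call without control replicate 1 (0.0587) or kaempferol replicate 2 (0.0799). The list of undifferentiated and dividing cell markers summed to 1202, 1215 and 1296 CPM in the kaempferol libraries and to 1691, 1767 and 1641 CPM in the control libraries, with 4 of 6 genes called lower, of which Myod1 lost its call without control replicate 1 (0.067) or kaempferol replicate 1 (0.0516) or 3 (0.0692). Mki67 and Top2a, markers of dividing cells, were thus expressed in both groups, at 393 ± 34.2 and 586 CPM with kaempferol and 665 ± 38.3 and 737 CPM in the controls. Fewer cells of a type and less RNA per cell cannot be told apart in bulk RNA. The part of these markers in the changes below was not tested. Adipocyte, osteoblast and macrophage markers together summed to 1.57 to 2.29 CPM per library, with Adipoq, Lep, Ibsp and Adgre1 at 0 counts.

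The promoters of the 10 genes were read for the core of the antioxidant response element, the site bound by NRF2, a transcription factor known to act on several of these genes. The letters searched were TGACNNNGC on both strands, from 250 bases before to 50 bases after each start annotated by RefSeq on GRCm38.p6. They occurred in 3 of the 13 promoters of the 10 genes, and in 12.4% of the 32851 mouse promoters read alike. Counted by gene, they occurred in 3 of the 10, beside 14% of 27025 genes. The genes with a match were G6pdx, Pgd and Me1, and the others, Taldo1, Tkt and Idh1 among them, had none. All 3 matches are shown with 15 bases on each side. Each is written 5′ to 3′ on the strand of its gene, with the match in capitals.
G6pdx: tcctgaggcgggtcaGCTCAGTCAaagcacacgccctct
Me1: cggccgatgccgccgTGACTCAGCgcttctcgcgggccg
Pgd: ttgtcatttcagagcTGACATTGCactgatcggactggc
The G6pdx window lies at chrX:74428914-74428952 on the minus strand, with the match on the opposite strand at bases -57 to -49 from the start. The Me1 window lies at chr9:86695897-86695935 on the minus strand, with the match across the start at bases -6 to 3. The Me1 match overlaps the letters TGANTCA, an AP-1 site, which occurred in 7.81% of all promoters. The Pgd window lies at chr4:149166056-149166094 on the minus strand, at bases 4 to 12 from a second annotated start inside the gene. These matches are a description of the letters and were not tied to the measured changes.

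Pgd showed the largest change of the 10 genes, G6pdx nearly doubled, and the third gene of the oxidative branch moved little. G6pdx encodes the entry and rate-limiting enzyme of the pathway (ENSMUSG00000031400, mm10 chrX:74409483-74429194). It stood at 255, 258 and 259 CPM in the kaempferol libraries, against 126, 136 and 139 CPM in the control libraries. The groups were far apart and the kaempferol libraries lay close together. With means of 258 ± 2.20 CPM with kaempferol and 134 ± 6.65 CPM in the controls (SD, n = 3 each), G6pdx rose 1.93-fold (log2 fold change 0.95, SE 0.0476, edgeR adjusted p = 6.32e-11). G6pdx shares 418 exonic bases, 13.6% of its exons, with Ikbkg on the opposite strand. The library kit as described marks no strand, so reads from those bases cannot be told apart. Ikbkg, a subunit of the IκB kinase complex, stood at 121, 113 and 126 CPM in the kaempferol libraries and 72.6, 69.4 and 69.1 CPM in the control libraries (log2 fold change 0.77, adjusted p = 5.88e-09), and the part of the shared bases in either change was not tested.

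Pgls encodes 6-phosphogluconolactonase, which opens the lactone made in the first step (ENSMUSG00000031807, chr8:71592176-71601092). Its levels were 98.0, 111 and 98.6 CPM with kaempferol and 92.1, 90.5 and 97.6 CPM in the controls. Every kaempferol library was above every control library, but the lowest of the kaempferol group exceeded the highest control by less than the spread within either group. The log2 fold change of 0.13 (95% interval 0.02 to 0.25) did not pass the threshold (adjusted p = 0.0893), although it did with upper-quartile scaling (0.0429) and without kaempferol replicate 3 (0.0476). Pgls also shares 776 exonic bases, 20.6% of its exons, with Fam129c on the same strand, which had 37 to 79 counts per library.

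Pgd encodes 6-phosphogluconate dehydrogenase, the enzyme of the branch's NADPH-forming last step (ENSMUSG00000028961, chr4:149149991-149166771). Its levels were 848, 856 and 828 CPM in the kaempferol libraries, from 14758, 14298 and 15580 counts, against 230, 234 and 256 CPM in the control libraries, from 3987, 4210 and 4245 counts. No library of one group came near the other. Pgd rose 3.51-fold (844 ± 14.4 CPM with kaempferol against 240 ± 13.7 CPM in the controls, log2 fold change 1.81, SE 0.0480, adjusted p = 7.33e-15), which placed it 6 by p-value and 37 by log2 fold change among all tested genes. Leaving out any library kept its log2 fold change between 1.79 and 1.86.

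**Figure D1:**
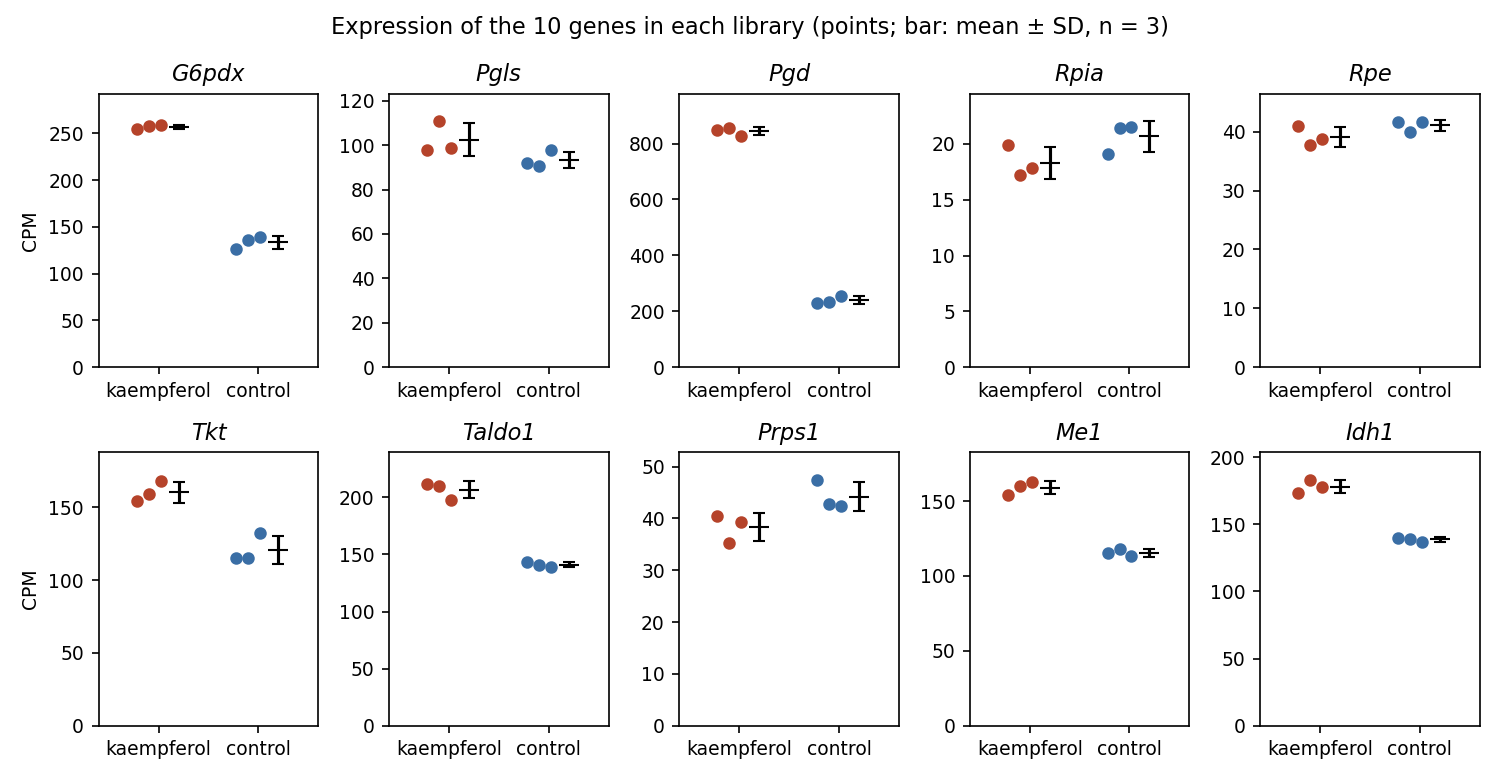
Expression of the 10 genes by group, in CPM on a linear axis that starts at 0. Points are libraries, and the bars beside them are the mean ± SD of 3. Pgd stands at 828 to 856 CPM with kaempferol and 230 to 256 CPM in the controls, while Rpia and Rpe overlap between the groups.

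The non-oxidative branch split by reaction: transketolase and transaldolase, which move carbon units between sugar phosphates, rose, and the isomerase and the epimerase that feed them did not pass the test. Taldo1, the transaldolase (ENSMUSG00000025503, chr7:141392199-141402968), stood at 212, 210 and 198 CPM in the kaempferol libraries, against 143, 141 and 139 CPM in the control libraries. Tkt, the thiamine-dependent transketolase (ENSMUSG00000021957, chr14:30548359-30574720), stood at 154, 159 and 168 CPM with kaempferol and 115, 115 and 132 CPM in the controls. Both genes had every kaempferol library above every control library, and the highest Tkt control was replicate 3. Taldo1 rose 1.47-fold (log2 fold change 0.55, SE 0.0456, adjusted p = 8.25e-08). Tkt rose 1.33-fold (log2 fold change 0.41, SE 0.0566, adjusted p = 3.73e-05).

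Rpia, ribose 5-phosphate isomerase (ENSMUSG00000053604, chr6:70765720-70792232), had 19.9, 17.2 and 17.8 CPM in the kaempferol libraries and 19.1, 21.4 and 21.5 CPM in the control libraries. Rpe, ribulose 5-phosphate epimerase (ENSMUSG00000026005, chr1:66700831-66719805), had 41.0, 37.7 and 38.8 CPM in the kaempferol libraries and 41.7, 40.0 and 41.6 CPM in the control libraries. The groups overlapped for both genes. The log2 fold change of Rpia was -0.17 (95% interval -0.36 to 0.02, adjusted p = 0.184), and that of Rpe was -0.07 (95% interval -0.21 to 0.07, adjusted p = 0.498). A rise of the size seen for Taldo1 or Tkt lies outside both intervals. Rpia has stretches of up to 395 bases, at 95% identity or more, in common with many other genes. One of them, D10Wsu102e, shares a stretch of 231 bases and had 1321 to 1757 counts per library. The part of such stretches in the Rpia counts was not tested. Rpe shares 558 exonic bases with Kansl1l on the opposite strand, and Kansl1l was lower with kaempferol, at 18.3, 18.7 and 20.3 CPM against 27.2, 28.4 and 22.8 CPM in the controls (log2 fold change -0.45, adjusted p = 0.00156).

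Prps1 encodes phosphoribosyl pyrophosphate synthetase, which turns ribose 5-phosphate into PRPP, the donor for nucleotide synthesis (ENSMUSG00000031432, chrX:140456613-140476140). Its levels were 40.4, 35.2 and 39.3 CPM in the kaempferol libraries and 47.4, 42.7 and 42.4 CPM in the control libraries. It was the one gene of the 10 with every kaempferol library below every control library. The fall was small and marginal (log2 fold change -0.21, 95% interval -0.36 to -0.05, adjusted p = 0.0493). The call was lost with DESeq2 (0.093), without control replicate 1 (0.25) or 2 (0.0693) and without kaempferol replicate 2 (0.22) or 3 (0.0696), and over all alternatives that lost it through a new fit the adjusted p ran from 0.0516 to 0.25. Prps1 has 95.3% identity over a stretch of 319 bases with Prps1l3, a gene of 1720 bases with 534 to 695 counts per library. Reads from that stretch could be split between the genes. The summed raw counts of the pair were 1328, 1121 and 1435 in the kaempferol libraries and 1457, 1443 and 1368 in the control libraries. These sums are not scaled, and the scaled total was 18811160 in kaempferol replicate 3 but 16595354 in control replicate 3. Their overlap therefore does not show that the fall is lost in the pair. In CPM, Prps1l3 itself stood at 35.9, 32.0 and 36.9 with kaempferol and 36.7, 37.6 and 40.0 in the controls. Its log2 fold change was -0.12 (adjusted p = 0.245).

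Both NADPH-forming enzymes outside the pathway rose. Me1, the cytosolic malic enzyme that converts malate to pyruvate (ENSMUSG00000032418, chr9:86581371-86695953), stood at 154, 160 and 163 CPM in the kaempferol libraries, against 115, 118 and 113 CPM in the control libraries. Idh1, the cytosolic isocitrate dehydrogenase (ENSMUSG00000025950, chr1:65158616-65186500), stood at 173, 183 and 178 CPM in the kaempferol libraries, against 140, 139 and 137 CPM in the control libraries. Neither gene overlapped between the groups. Me1 rose 1.38-fold (log2 fold change 0.46, SE 0.046, adjusted p = 8.15e-07), and Idh1 rose 1.28-fold (log2 fold change 0.36, SE 0.0447, adjusted p = 1.28e-05). Me1 has processed pseudogenes and a noncoding copy of near-identical sequence (Gm7049, Gm7329 and Gm48795), but these had 0 to 6 counts per library.

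In all, 6 of the 10 genes were called higher and 1 lower at an adjusted p under 0.05 over all tested genes, where 24% of the tested genes were called, 11.3% higher and 12.6% lower. With upper-quartile scaling, which shifted the median of all genes by 0.027 on the log2 scale, 13.5% were called higher and 9.78% lower, and 7 of the 10 genes were called higher and none lower. Kaempferol libraries lay wholly above the controls for 7 genes and wholly below for 1, and the groups did not overlap for 38.2% of all tested genes (18.6% above, 19.6% below). Their log2 fold changes had a median of 0.38, beside -0.00 over all tested genes. By role, 2 of 3 oxidative genes were called higher with a median of 0.95, 2 of 4 non-oxidative genes with a median of 0.17, and 2 of 2 other NADPH-forming genes with a median of 0.41. DESeq2 also gave 6 higher and none lower, where it called 19.2% of the 14346 genes to which it gave an adjusted p. Most of these rises were modest: with a fold of at least 1.5 also required, 2 of the 10 were called, G6pdx and Pgd, both higher, where 4.3% of all tested genes were called and 3.03% were higher.

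**Figure D2:**
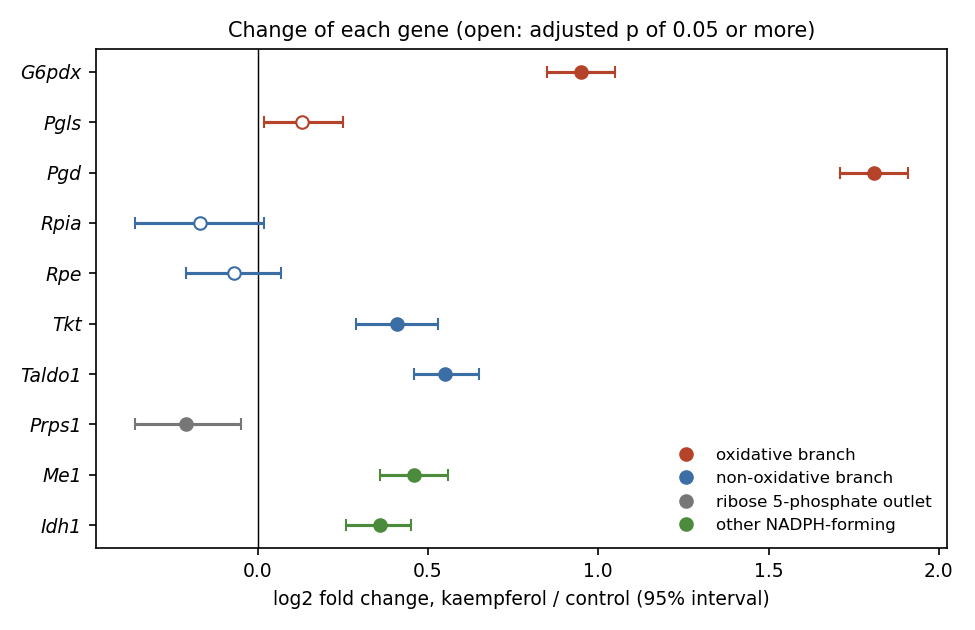
Log2 fold change, kaempferol over control, of each gene with its 95% interval from edgeR, coloured by role. Filled points passed an adjusted p of 0.05 and open points did not. Pgd (1.81) and G6pdx (0.95) stand to the right of Taldo1 (0.55), Me1 (0.46), Tkt (0.41) and Idh1 (0.36), and Prps1 (-0.21) is the one filled point left of 0.

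The balance of the branches lay further toward the oxidative one with kaempferol, by an amount that depended on Pgd. The summed levels per deposited gene length of G6pdx, Pgls and Pgd were 240, 246 and 239 RPKM (CPM divided by gene length in kilobases) in the kaempferol libraries, against 101, 105 and 111 RPKM in the control libraries. The summed levels of Rpia, Rpe, Tkt and Taldo1 were 135, 134 and 130 RPKM in the kaempferol libraries, against 98.3, 97.5 and 99.5 RPKM in the control libraries. Both sums were higher with kaempferol in every library, the oxidative one by more. The log2 ratio of the oxidative over the non-oxidative sum was 0.83, 0.88 and 0.88 in the kaempferol libraries, against 0.04, 0.10 and 0.15 in the control libraries, a difference of 0.76. With the length of each gene's principal transcript in place of the deposited length the difference was 0.73. Without Pgd it was 0.27 with deposited lengths, and 0.01 with principal transcript lengths, where the groups overlapped (-0.20 ± 0.0605 with kaempferol against -0.21 ± 0.035 in the controls, SD, n = 3 each). The ratio is a score over chosen genes and was given no p-value. Pgd made up 70.1% of the oxidative CPM with kaempferol and 51.4% in the controls.

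**Figure D3:**
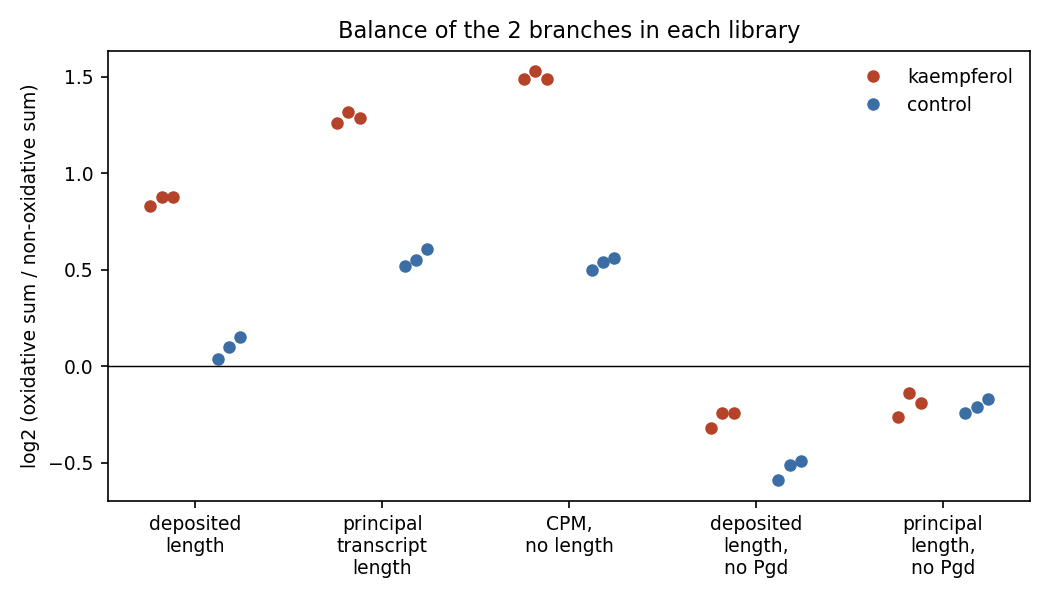
Log2 ratio of the summed oxidative over the summed non-oxidative level in each library, with 5 ways of summing along the horizontal axis. Each point is a library. The groups are apart by 0.76 with deposited lengths and 0.73 with principal transcript lengths, and overlap when Pgd is left out with principal transcript lengths (difference 0.01).

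Between single enzymes, the log2 ratio of G6pdx to Tkt per deposited length was 1.98, 1.96 and 1.88 in the kaempferol libraries, against 1.40, 1.5 and 1.33 in the control libraries. The groups did not overlap, and the difference was 0.54. The two-sided exact permutation test gave p = 0.1, which is the smallest value that 3 libraries against 3 allow.

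The order of the genes by level also changed at the top. By principal transcript length, Pgd ranked first with kaempferol at 381 ± 6.51 RPKM, and second in the controls at 108 ± 6.17 RPKM, where it overlapped Taldo1 (115 ± 1.43 RPKM) and Pgls (105 ± 4.14 RPKM). G6pdx stood above Idh1 with kaempferol, at 97.1 against 77.2 RPKM, and below it in the controls, at 50.4 against 60.3 RPKM. Tkt and Me1 overlapped in both groups, and Prps1, Rpe and Rpia were the lowest in both, down to 10.0 RPKM for Rpia with kaempferol and 11.3 RPKM in the controls. The order depended on the length used: Pgls, whose deposited length of 3770 bases compares with 893 bases for its principal transcript, fell to sixth place in both groups by deposited length. By that length Pgd ranked 4 in the controls, at 37.3 RPKM. Me1 then lay above Tkt without overlap in both groups, at 41.2 against 21.8 RPKM with kaempferol. In the controls Tkt (16.4 RPKM) then lay below Prps1 (22.2 RPKM).

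The 3 protein-coding genes whose log2 CPM ran most like that of Pgd over the 6 libraries were Slc48a1 (Pearson r = 0.99966), a heme transporter, Aldh3a1 (0.99957), an aldehyde dehydrogenase, and Esd (0.99951), esterase D. These r values describe 6 libraries in 2 separate groups, and 606 genes had an r above 0.95.

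Among other genes of the pathway and of PRPP formation, 10 of 14 were tested, with 2 called higher and 1 lower, where 24% of all tested genes were called, and a median log2 fold change of 0.05. The paralogs G6pd2, Tktl1, Tktl2 and Prps1l1 had 0 to 8 counts per library and were not tested. H6pd, which runs the oxidative steps before that of Pgd inside the endoplasmic reticulum, stood at 70.5 ± 2.83 CPM with kaempferol and 68.9 ± 3.87 CPM in the controls (SD, n = 3 each, log2 fold change 0.03, adjusted p = 0.738). Rbks, which phosphorylates ribose, was called higher from low counts (23 to 55 per library, log2 fold change 0.84, adjusted p = 0.025). Its call was lost with DESeq2 (0.073), without control replicate 2 (0.0671) or 3 (0.0754) and without kaempferol replicate 2 (0.121) or 3 (0.0703). Prpsap1, a PRPP synthetase-associated protein, had a log2 fold change of 0.17 (adjusted p = 0.0287) and the phosphoglucomutase that RefSeq names Pgm2 one of -0.18 (adjusted p = 0.0471). Prpsap1 lost its call without control replicate 1 (0.125) or 3 (0.0561) and without kaempferol replicate 1 (0.161) or 2 (0.0744), and Pgm2 lost its call without any library but control replicate 3 (up to 0.221).

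Among other NADPH-forming and NADP-forming enzymes, most did not pass the test. Of 12 genes, 1 was called higher and 3 lower, where 24% of all tested genes were called, with a median log2 fold change of -0.01. Nadk2, the mitochondrial NAD kinase, was higher (75.6 ± 2.53 CPM with kaempferol against 64.7 ± 2.50 CPM in the controls, log2 fold change 0.22, adjusted p = 0.006). Mthfd1, the cytosolic folate enzyme, was lower (118 ± 2.01 CPM with kaempferol against 137 ± 0.753 CPM in the controls, log2 fold change -0.22, adjusted p = 0.0013), and so was Idh2, the mitochondrial counterpart of Idh1 (141 ± 5.91 CPM with kaempferol against 157 ± 5.44 CPM in the controls, log2 fold change -0.15, adjusted p = 0.0269). The Idh2 call was lost without control replicate 1 (0.0984) or 3 (0.0865) and without kaempferol replicate 1 (0.0847) or 3 (0.0887).

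Enzymes that use NADPH fell into those that rose strongly and those that did not. Of 20 genes, 7 were called higher and 3 lower, where 24% of all tested genes were called, with a median log2 fold change of 0.01. Nqo1, the quinone reductase, had 209 ± 9.79 CPM with kaempferol and 26.6 ± 0.529 CPM in the controls (log2 fold change 2.97, adjusted p = 2.76e-17). Blvrb, biliverdin reductase B, rose by 1.79 on the log2 scale (adjusted p = 2.92e-11) and Cbr3, a carbonyl reductase, by 1.31 (adjusted p = 1.1e-09). The other 4 called higher were Txnrd1, Gsr, Cbr1 and Fasn, at 1.19, 0.62, 0.30 and 0.14 on the log2 scale. Cbr1 lost its call without control replicate 1 (0.085) or 2 (0.0605) or kaempferol replicate 1 (0.0599), and Fasn without any library but kaempferol replicate 1 (up to 0.144). Rrm1, a subunit of ribonucleotide reductase, was among the 3 called lower, at -0.15, and lost its call without control replicate 1 (0.0832) or 2 (0.143) or kaempferol replicate 1 (0.099) or 2 (0.064).

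The list of glucose 6-phosphate supply and neighbouring glycolysis had no gene called higher and 5 of 17 tested genes lower. Of all tested genes 24% were called, 11.3% higher and 12.6% lower. The median log2 fold change of the list was -0.05. By upper-quartile scaling 1 gene of this list was called higher. Pfkl, the liver-type phosphofructokinase that commits glucose 6-phosphate carbon to glycolysis, fell to 146 ± 6.95 CPM with kaempferol, against 212 ± 9.31 CPM in the controls (log2 fold change -0.53, adjusted p = 3.95e-07). Tpi1, triose phosphate isomerase, had a log2 fold change of -0.35 (adjusted p = 2.25e-05), and Aldoa and Pfkp had -0.31 and -0.18. Pfkp lost its call without control replicate 1 (0.114) or 3 (0.0567) or kaempferol replicate 1 (0.0526) or 3 (0.0722). The fifth call, Gapdh, rested on 1 library: it had 329, 329 and 333 counts with kaempferol and 378, 403 and 3141 in the controls, and its log2 fold change of -2.05 (adjusted p = 0.0134) became -0.24 (adjusted p = 0.0773) without control replicate 3. Gapdh is a gene with many processed pseudogenes, so its counts are uncertain.

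Of 16 genes of purine and pyrimidine synthesis, the routes that draw on PRPP, 1 was called higher and 2 lower, where 24% of all tested genes were called, with a median log2 fold change of -0.03. Adss1, the muscle adenylosuccinate synthetase, was higher (30.3 ± 2.64 CPM with kaempferol against 23.0 ± 3.45 CPM in the controls, log2 fold change 0.40, adjusted p = 0.00742). Ppat, the first enzyme of purine synthesis, had a log2 fold change of -0.21 (adjusted p = 0.0259) and Gart, a later one, of -0.16 (adjusted p = 0.0328). Ppat lost its call without control replicate 2 (0.153) and without kaempferol replicate 1 (0.0523) or 2 (0.115). Gart lost its call without control replicate 2 (0.157) or 3 (0.0832) and without kaempferol replicate 2 (0.103) or 3 (0.0988).

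Of NRF2 and 6 regulators and partners, 1 was called higher and 1 lower, where 24% of all tested genes were called. Their median log2 fold change was -0.02. Nfe2l2, which encodes NRF2, had 86.5 ± 0.731 CPM with kaempferol and 94.0 ± 4.63 CPM in the controls (log2 fold change -0.12, 95% interval -0.23 to -0.02, adjusted p = 0.0907). Mafg, a small MAF partner, was higher (log2 fold change 0.40, adjusted p = 4.69e-06). Cul3, the ubiquitin ligase scaffold for NRF2, had a log2 fold change of -0.20 (adjusted p = 0.0181) that lost its call without control replicate 1 (0.104) or 2 (0.13) or kaempferol replicate 3 (0.0715).

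**Figure D4:**
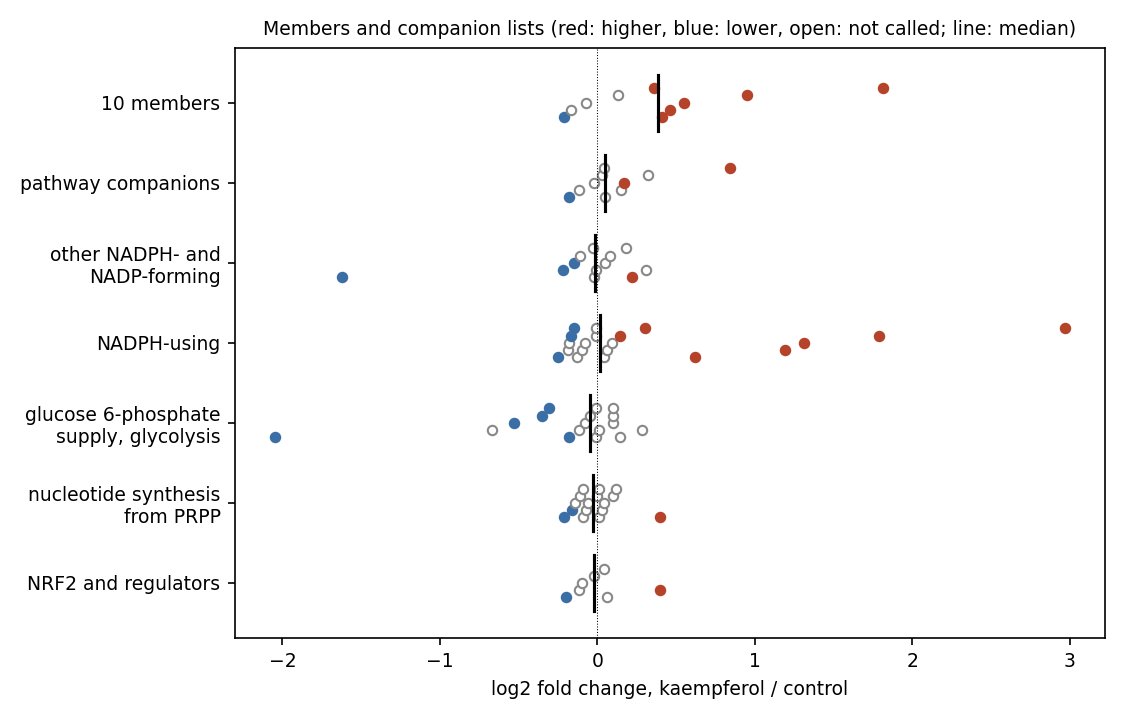
Log2 fold change, kaempferol over control, of every tested gene of the 10 (top) and of 6 lists of related genes. Red points were called higher, blue points lower and open points neither, and the vertical bar is the median, which is 0.38 for the 10 genes and between -0.05 and 0.05 for the other lists.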

How the data were processed

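Whole-transcriptome sequencing of poly-T selected RNA was performed on 3 kaempferol and 3 control libraries, grouped by their titles. Per the labels and the submitters' processing notes, the authors cleaned reads with fastp, aligned them to mm10 with HISAT2 2.0.5, used StringTie 1.3.3b and counted reads per gene with featureCounts 1.5.0-p3. The strand setting and annotation release are not given in the sources used here. The deposited table holds whole read counts per gene with no normalization, and other columns with gene length and position. The study compared the same groups with DESeq2 1.20.0.

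Counts were tested with edgeR 4.0.16 in R 4.3.3: genes passing filterByExpr (minimum count 10, minimum total 15) were scaled by TMM and fitted by the quasi-likelihood test with group as the sole term, and p-values were adjusted by Benjamini and Hochberg over all 14558 tested genes at 0.05. CPM use TMM-scaled totals, and the log2 CPM used for correlations a prior count of 2. Log2 fold changes are those of the edgeR fit. A fold written beside a log2 fold change is the ratio of the group mean CPM. RPKM divide CPM by the deposited gene length, which equalled the GENCODE M21 exon union for 10 of the 10 genes, or by the APPRIS principal transcript length. Fits were tested on simulated data, and at a true change of 1.5-fold the edgeR fit found 45 of 67 genes, at 2-fold 62 of 67, and at 4-fold 64 of 66. Copies were sought at 95% identity or more. Pgm2, Adss1, Nnt and Aldoa, whose names are older or occur more than once in the table, were matched through RefSeq coordinates.

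The 10 genes, the lists and the tests were chosen with earlier results of these data known. All 10 genes are described. From each other list, up to 3 genes were named with the largest absolute log2 fold change among those called, if they averaged 5 CPM or more and their 2 groups were disjoint. Further genes of the lists (Rbks, H6pd, Txnrd1, Gsr, Cbr1, Fasn, Rrm1, Aldoa, Pfkp, Nfe2l2, Nnt, Prps2, Acta1, Myog, Myod1, Mki67 and Top2a) were named after their values were seen, and some single genes of the lists are not reported here. For Pgd, the 3 protein-coding genes with the highest r are named. Alternatives were DESeq2 1.42.0, RLE or upper-quartile factors, other filters, an adjusted p of 0.01, a fold of 1.5, a replicate block and leaving out each library.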

Additional observations from a re-analysis of the deposited data

How the results depend on the processing

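The calls of G6pdx, Pgd, Taldo1, Tkt, Me1 and Idh1 as higher held in every alternative fit and without any single library. Among the 10 genes, 6 were called higher in the fit described and 2 with a fold of at least 1.5. The 1 gene called lower, Prps1, was not called under DESeq2, RLE or upper-quartile factors, at least 10 counts in every library, an adjusted p under 0.01 or a fold of at least 1.5, each giving 0, and leaving out single libraries gave 0 to 1. The lists of related genes had 12 calls higher, and 6 with a fold of at least 1.5. They had 15 calls lower, 6 at an adjusted p under 0.01, 2 with a fold of at least 1.5, and 9 to 11 without single libraries. The same replicate numbers gave no sign of pairing the libraries. Same-numbered libraries had correlations of -0.0246, -0.0612 and -0.0453 in their deviations from the group means, and others -0.0095 to 0.0569. Deviations within a group are not independent, so these values cannot show that the replicates were unpaired. With the replicate number as a block, 1337 genes were called higher and 1413 lower, against 1647 and 1840 without it. With the block 6 of the 10 genes were called higher and 0 lower, and 9 genes of the related lists lower. The difference in branch ratio of 0.76 was 0.97 from CPM without lengths, 0.92 without G6pdx, 0.98 without Pgls, 0.27 without Pgd, 0.70 without Rpe and 1.02 without Taldo1, and it was 0.01 from principal transcript lengths without Pgd. Leaving out single libraries gave 0.73 to 0.79. The fold minimum, the principal lengths and leaving out genes were chosen after seeing the data. With 3 libraries a group, changes can be missed: in simulated data edgeR found 45 of 67 genes at 1.5-fold and 62 of 67 at 2-fold. Counts at shared exons or similar stretches (G6pdx, Pgls, Rpe, Rpia, Prps1) are less certain. RNA levels were measured, not enzyme activity or NADPH.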

Other observations

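Nnt, the mitochondrial transhydrogenase that forms NADPH from NADH, was counted at 3, 10 and 6 reads in the kaempferol libraries and 14, 21 and 23 reads in the control libraries (log2 fold change -1.62, edgeR adjusted p = 0.0145). The call was lost without control replicate 3 (0.0665) and without kaempferol replicate 1 (0.0772) or 3 (0.0517). Every kaempferol library was below every control library, at a level under the 5 CPM set for naming a gene. The table lists more than 1 gene under this name, and the value is that of ENSMUSG00000025453.

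Of the summed CPM of Prps1, Prps1l3 and Prps2, Prps1 made up 30.9%, 29.7% and 30.2% in the kaempferol libraries and 34.2%, 31.6% and 31.2% in the control libraries. Prps2 stood at 53.3 ± 1.68 CPM with kaempferol and 54.3 ± 0.564 CPM in the controls (SD, n = 3 each, log2 fold change -0.02, 95% interval -0.15 to 0.10).

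The 10 genes together took 1995, 2027 and 1989 CPM in the kaempferol libraries and 1070, 1079 and 1119 CPM in the control libraries. Without Pgd the sums were 1150, 1170 and 1160 CPM with kaempferol and 839, 844 and 863 CPM in the controls.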
